A study of Mus musculus with 2 samples.

Results

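The cytosolic ribosomal protein genes encode the proteins of the large and small subunits of the ribosome outside mitochondria. They were taken by symbol from the gene list of the deposited matrices, as Rpl or Rps followed by a digit, together with Rplp0, Rplp1, Rplp2 and Rpsa, leaving out processed pseudogenes and the Rps6k kinases. The rule found 87 of 33696 genes. Of these, 77 are the usual ribosomal proteins, 46 of the large and 31 of the small subunit. The other 10 are the paralogues and retrocopies Rpl3l, Rpl7l1, Rpl10l, Rpl22l1, Rpl36al, Rpl39l, Rps23rg1, Rps27l and Rps27rt, and Rps19bp1, which codes for a binding partner of Rps19 and not for a ribosomal protein. Fau encodes a ribosomal protein fused to a ubiquitin-like protein and lies outside the rule by its name.

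A cell needs its ribosomal proteins in about equal numbers, and their mRNAs are among the most abundant in most cells. Many of these mRNAs begin with a run of pyrimidines, the 5' terminal oligopyrimidine tract, through which the kinase mTOR tunes their translation together. Resting lymphocytes are known for short transcriptomes in which such mRNAs hold a large share, and ribosome production increases when T cells are activated. Counts of mRNA do not show how many ribosomes are made.

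The tumours were LLC, a transplantable Lewis lung carcinoma of mice, and the labels call the cells tumour-infiltrating lymphocytes. Cells were taken from Dusp2-/- mice (KO) and from wild-type mice (WT), with 1 library each, made with the 10x Chromium 3' kit of version 3.1. Dusp2 encodes a phosphatase of MAP kinases that is induced in activated T cells. The labels give the molecule as polyA RNA for KO and total RNA for WT, and give no age, sex, sorting, number of animals, tumour size or deleted part of Dusp2. With 1 library per genotype there was no test, and genotype cannot be told apart from animal, tumour or library preparation. Intervals below are 95%, exact, and cover counting error only.

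The KO library held 12744 barcodes with 101532711 UMIs and the WT library 9890 barcodes with 113873249 UMIs; 31 barcodes occur in both. After a filter of 200 genes per cell and 20% mitochondrial UMIs there were 12636 KO cells at a median of 4796 UMIs and 9765 WT cells at a median of 8598. Classes were set cell by cell from marker genes, with the names of the gates used as class names. They took in 8632 KO cells (68.3%) and 7176 WT cells (73.5%), and cells that met gates of several lineages, 830 in KO and 713 in WT, were left out as likely doublets. Besides lymphocytes the libraries held macrophages, dendritic cells and cells with Y-chromosome transcripts and without Ptprc, named tumour here. Cells gated on Dcn, Lum or Pdgfra carried the tumour markers Rhox5, Krt8, Krt18, Hmga2 and Cd9 at 2422 CPM in KO and 2963 CPM in WT in sum, against 3015 and 3162 CPM in the tumour class, so they are named by the gate and not as fibroblasts. CPM scales the UMIs of a gene to a fixed total for its class and library. Dusp2 stood at 8.90 CPM in KO and 578 CPM in WT in CD8 T cells and at 7.71 and 1040 CPM in NK cells. In the tumour class it was 80.9 CPM in KO and 73.3 CPM in WT. Antibody RNA was higher in KO also outside B cells, with Igkc at 708 CPM in KO and 2.02 CPM in WT CD8 T cells.

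Ribosomal protein mRNA made up a larger share of the transcriptome in KO than in WT in every T cell class, in monocyte/macrophage and conventional dendritic cells and, by less, in NK cells, while the shares in tumour cells were nearly equal. Over all kept cells, members held 22.1% of KO UMIs and 18.1% of WT UMIs. These totals also depend on the mix of cells, which differed between the libraries. Monocyte/macrophage cells, with a low share, numbered 1652 in KO and 4695 in WT, and B cells 3578 in KO and 11 in WT. How much of the difference in the totals comes from the mix was not tested. In cells that met no gate, members held 25.007% in KO (3139 cells) and 24.4955% in WT (1848 cells). CD8 T cells had 27.2% in KO (746 cells) and 21.0% in WT (340 cells), a log2 ratio of 0.37 (0.365 to 0.375), or 1.29-fold. Conventional CD4 T cells had 24.4% in KO (450 cells) and 18.4% in WT (148 cells), log2 0.41. Regulatory T cells had 19.7% in KO (139 cells) and 15.9% in WT (130 cells), log2 0.31. T cells with neither or mixed co-receptor UMIs, called other T here, had 25.7% in KO (813 cells) and 19.9% in WT (456 cells), log2 0.37. The KO excess was thus of like size in the 4 T cell classes. It was smaller in cells without UMIs of Ccr7 and Lef1, genes of resting T cells, at log2 0.16 in CD8 T, 0.26 in conventional CD4 T and 0.13 in regulatory T cells.

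NK cells had 22.4% in KO (164 cells) and 20.5% in WT (408 cells), log2 0.13 (0.123 to 0.136). Monocyte/macrophage cells had the lowest share of the large classes, 13.2% in KO (1652 cells) and 11.1% in WT (4695 cells), log2 0.25. Conventional dendritic cells had 17.4% in KO (218 cells) and 15.3% in WT (280 cells), log2 0.19. In tumour cells the share was 26.3% in KO (273 cells) and 26.0% in WT (248 cells), log2 0.016 (0.013 to 0.018). The Dcn/Lum/Pdgfra-gated cells had 23.0% in KO (203 cells) and 22.7% in WT (415 cells), log2 0.021, but their median cell had 15.2% in KO and 22.0% in WT. Pooled and per-cell values thus disagreed there, at medians of 12292 UMIs per cell in KO and 21664 in WT. The fibroblast markers Col1a1, Col1a2, Col3a1, Bgn, Sparc and Postn summed to 13759 CPM in KO and 6786 CPM in WT in these cells, with 6 of 6 higher in KO, against 622 CPM in KO and 777 CPM in WT in the tumour class. Their part in the shares was not tested.

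**Figure D1:**
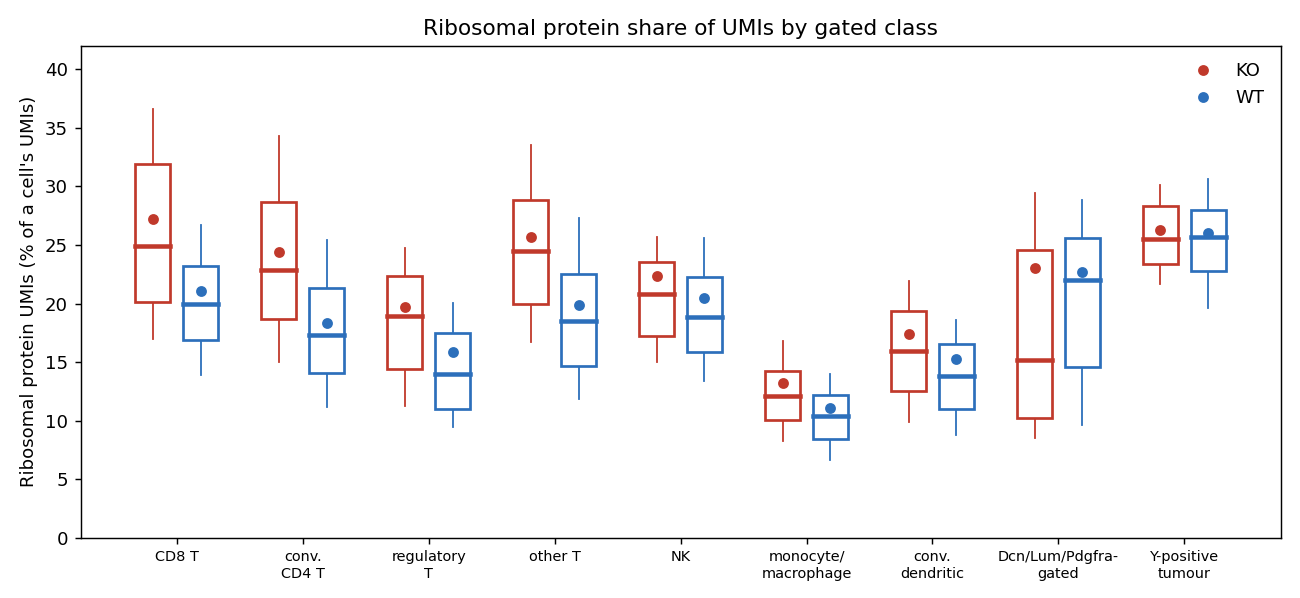
Share of a cell's UMIs that are ribosomal protein UMIs (y axis, percent) in 9 gated classes, KO in red left of WT in blue. Boxes span the quartiles with the median as a bar, whiskers the 10th to 90th percentile of cells, and dots give the share of the pooled UMIs: CD8 T cells are at 27.2% in KO and 21.0% in WT, tumour cells at 26.3% in KO and 26.0% in WT.

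The spread between cells was wide. The median CD8 T cell had 24.9% in KO, with quartiles of 20.1 and 31.9%, and 19.9% in WT, with quartiles of 16.9 and 23.2%. The boxes overlap, and the upper KO quartile lies above the WT 90th percentile of 26.7%. Median monocyte/macrophage cells had 12.1% in KO and 10.4% in WT, again with overlapping quartiles.

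The order of the classes differed between the libraries. In KO, CD8 T cells had the highest share, followed by tumour, other T and conventional CD4 T cells, and monocyte/macrophage cells the lowest of the 9. In WT, tumour cells at 26.0% and Dcn/Lum/Pdgfra-gated cells at 22.7% stood above every lymphocyte class, of which CD8 T cells were highest. B cells and plasma cells could be described only in KO. There 3578 B cells had a share of 24.4% and 286 plasma cells, in which antibody genes held 55.0% of UMIs, had 7.07%. The WT library had 11 B cells and 0 plasma cells by the gates. Plasmacytoid dendritic cells numbered 100 in KO, with a median share per cell of 14.6%, and 23 in WT, with a median of 13.7%, while their pooled shares had the other order, 17.3% in KO and 22.6% in WT. Neutrophils numbered 10 in KO, with a median of 2.76% and a pooled share of 3.65%, and 22 in WT, with a median of 2.25% and a pooled share of 20.8%. Such small classes went into no comparison.

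Both subunits took part about equally. Large-subunit members held 15.1% of UMIs in KO and 11.8% in WT CD8 T cells, log2 0.36, and the small-subunit members 12.1% in KO and 9.26% in WT, log2 0.39. The same ratios in monocyte/macrophage cells were 0.25 for the large and 0.24 for the small subunit. The number of large-subunit UMIs per small-subunit UMI was 1.25 in KO and 1.27 in WT CD8 T cells.

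Depth differed between the libraries, so shares were also compared in cells of like depth, in steps of doubling UMI counts with at least 20 cells in each library. The KO share was the higher in 3 of 3 such bins of CD8 T cells, 2 of 2 of conventional CD4 T, 3 of 3 of regulatory T and 4 of 4 of other T cells. It was also the higher in 3 of 3 bins of NK, 5 of 5 of monocyte/macrophage and 4 of 4 of conventional dendritic cells. Between 4000 and 8000 UMIs the pooled share of CD8 T cells was 28.5% in KO (297 cells) and 21.0% in WT (186 cells), log2 0.44. The monocyte/macrophage ratio shrank with depth, from 0.65 between 1000 and 2000 UMIs to 0.16 between 16000 and 32000 UMIs. In that deepest bin the median cell had 12.3% in KO and 11.7% in WT. NK cells showed a ratio of 0.20 between 2000 and 4000 UMIs and 0.050 between 8000 and 16000 UMIs. In tumour cells it was 0.21 between 8000 and 16000 UMIs, with 41 KO and 29 WT cells, and 0.023 between 16000 and 32000 UMIs. The bins ended at 32000 UMIs. Tumour cells had medians of 25400 UMIs in KO and 32914 UMIs in WT, so many of them lay in no bin. The Dcn/Lum/Pdgfra-gated cells were higher in KO in 1 of 3 bins.

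**Figure D2:**
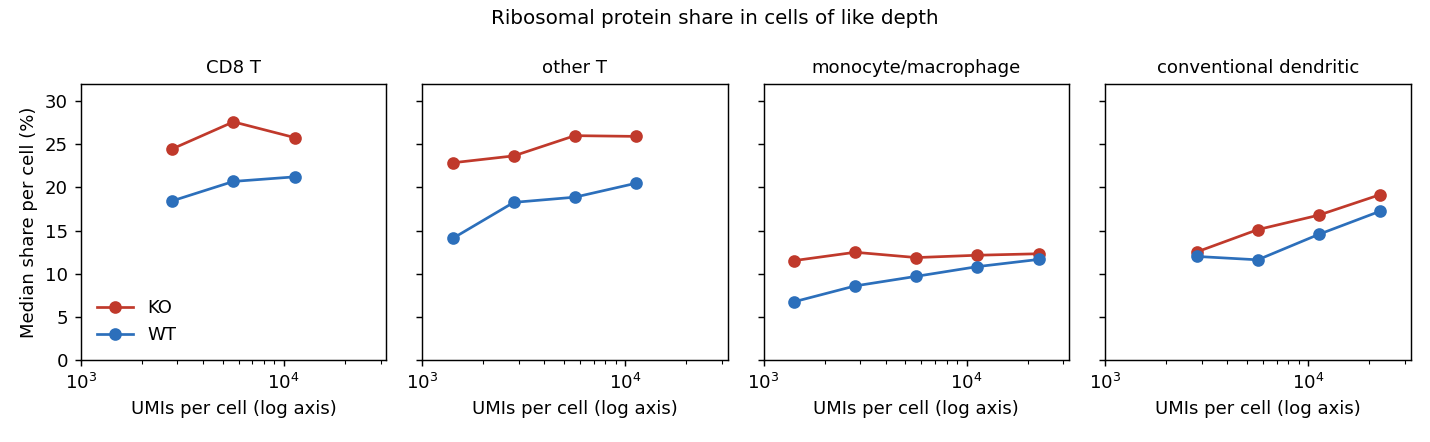
Median share of ribosomal protein UMIs per cell (y axis, percent) against UMIs per cell (x axis, log scale, bin middles) in 4 classes, KO in red and WT in blue, for bins with at least 20 cells in each library. KO lies above WT in every bin drawn, and in monocyte/macrophage cells the medians draw together to 12.3% in KO and 11.7% in WT in the deepest bin.

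Cycling cells differed less than others in CD8 T cells. With at least 2 UMIs of the proliferation genes Mki67 and Top2a, the share was 22.9% in KO (81 cells) and 21.5% in WT (48 cells), log2 0.092. With none it was 28.7% in KO (580 cells) and 21.1% in WT (248 cells), log2 0.44. In monocyte/macrophage cells the order was the other way round, with 15.9% in KO and 12.3% in WT, log2 0.37, in cycling cells and 12.4% in KO and 10.8% in WT, log2 0.20, in cells without these genes.

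T cells were also split by Ccr7, a homing receptor, and Lef1, a transcription factor, both high in resting T cells, a split chosen after seeing the data. Cells with at least 2 UMIs of the pair made up 54.02% of KO and 30.6% of WT CD8 T cells, 62.9% of KO and 34.5% of WT conventional CD4 T cells and 48.2% of KO and 32.3% of WT regulatory T cells. Cells with these markers thus made up a larger part of each class in KO. Among CD8 T cells that had them, members held 30.1% in KO (403 cells) and 22.9% in WT (104 cells), log2 0.39 (0.387 to 0.402), and among those with none 22.3% in KO (229 cells) and 19.9% in WT (170 cells), log2 0.16 (0.153 to 0.171). Among CD8 T cells the share was thus higher in both genotypes with at least 2 UMIs than with none, and the KO excess was smaller with none. Conventional CD4 T cells had 26.4% in KO and 19.98% in WT with the markers, log2 0.40, and 19.2% in KO and 16.04% in WT without, log2 0.26. Regulatory T cells had 21.6% in KO and 17.03% in WT with them, log2 0.34, and 15.4% in KO (47 cells) and 14.03% in WT (70 cells) without, log2 0.13. With each cell thinned to 2000 UMIs before the split, the ratio without the markers was 0.22 in CD8 T, 0.29 in conventional CD4 T and 0.24 in regulatory T cells, and with them 0.46, 0.47 and 0.52 in the same order, the last from 35 KO and 14 WT cells. Other T cells had 0.36 with the markers and 0.32 without before thinning, and 0.37 and 0.33 after it. Cells with 1 UMI of the pair, before thinning, had ratios of 0.19 in CD8 T and 0.12 in conventional CD4 T cells. The ratio was 0.10 in regulatory T and 0.23 in other T cells. Outside CD8 T cells these lay below the ratios of cells with none, so the excess did not rise evenly with the markers. WT regulatory T cells with 1 UMI had a share of 17.6%, above that of cells with at least 2. How much of the pooled ratio comes from the different mix of cells was not tested.

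The summed RNA of plasma-cell markers was higher in the KO than in the WT library in every class compared. Summed over the markers Jchain, Xbp1, Igkc, Ighm, Txndc5, Prdm1 and Irf4, CD8 T cells had 961 CPM in KO and 187 CPM in WT, with 4 of 7 genes higher in KO and 1 of 7 at 0 in WT. Igkc alone was 708 CPM of the KO sum, and it stood at 8453 CPM in KO B cells. Among cells with under 0.1% immunoglobulin UMIs, the ribosomal protein share was 27.3% in KO (321 cells) and 21.0% in WT (340 cells) in CD8 T cells, log2 0.38. In monocyte/macrophage cells the same selection gave 13.5% in KO (913 cells) and 11.1% in WT (4691 cells), log2 0.28. The limit also selected deeper cells in KO. Their median was 6412 UMIs in CD8 T and 10137 UMIs in monocyte/macrophage cells, against 4418 and 7115.5 UMIs in the whole KO classes. WT kept 100% and 99.9% of its cells in these classes. The part of immunoglobulin RNA in the ratios was not tested. Mitochondrial UMIs made up 2.58% in KO and 1.89% in WT CD8 T cells.

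The family moved as a block rather than through a few genes. Of the usual members, 77 of 77 were higher in KO CD8 T cells, against 34.5% of the 4865 genes with at least 50 UMIs in a library and a mean of at least 30 CPM. Their median log2 ratio was 0.37, with a range of 0.057 to 0.66, against a median of -0.12 over all tested genes. All 77 usual members passed this filter in all 9 classes. The count was also 77 of 77 in conventional CD4 T cells (background 42.1%), regulatory T cells (40%), other T cells (40.6%) and monocyte/macrophage cells (40.3%). It was 70 of 77 in NK cells (42.3%) and 75 of 77 in conventional dendritic cells (44%). In the Dcn/Lum/Pdgfra-gated cells 53 of 77 were higher (45.4%) and in tumour cells 46 of 77 (47.7%), with median log2 ratios of 0.036 and 0.025. Members share their cells and libraries, so these counts are not independent. CPM scales to a fixed total, so a larger share for the family by itself lowers the ratios of the other genes. The background counts and medians, here and below, are thus not independent of the family's higher share in KO.

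Most members stayed under 1.41-fold. Past a log2 ratio of 0.5, the same limit, 10 of 83 tested members were higher in KO CD8 T cells (3.8% of all genes), 20 of 82 in conventional CD4 T cells (9.38%), 6 of 81 in regulatory T cells (7.02%) and 9 of 83 in other T cells (8.64%). In NK cells there were 2 of 83 (7.33%), in conventional dendritic cells 1 of 83 (5.02%) and in monocyte/macrophage cells 0 of 83 (1.3%). The Dcn/Lum/Pdgfra-gated and tumour cells had 0 of 83 each (6.28% and 1.6%). No tested member was past 0.5 in the lower direction in any of the 9 classes, against 15.9% of all genes in CD8 T, 17.9% in conventional CD4 T, 15.6% in regulatory T, 19% in other T and 15.4% in NK cells. The same background was 4.63% in monocyte/macrophage, 7.67% in conventional dendritic, 6.13% in Dcn/Lum/Pdgfra-gated and 3.24% in tumour cells. It takes in genes with far fewer UMIs than the usual members, which counting error spreads more widely.

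**Figure D3:**
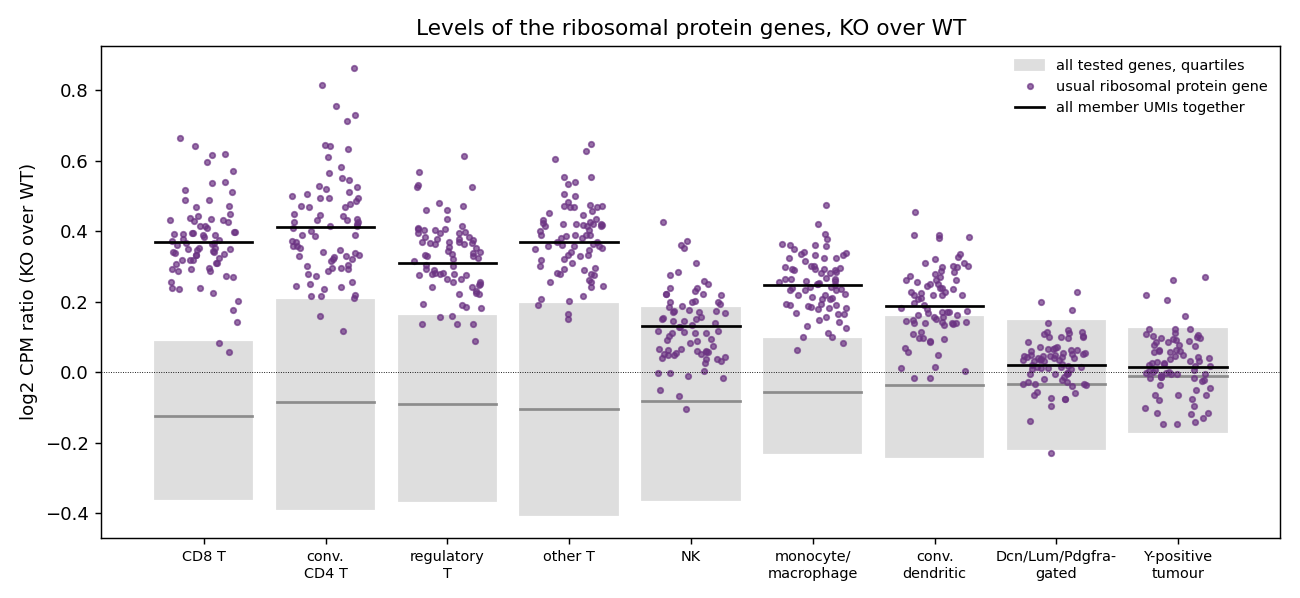
log2 CPM ratio, KO over WT (y axis), of each of the 77 usual ribosomal protein genes (points) in 9 gated classes, with the ratio of all member UMIs together as a black line. Grey boxes give the quartiles and grey lines the median over all tested genes. In CD8 T cells the points span 0.057 to 0.66 around 0.37, and in tumour cells they lie on both sides of 0.

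To see which genes departed from the block, each member's share of all member UMIs was compared between the libraries. The log2 of that ratio, KO over WT, is called its deviation, and 0 means that the gene moved with the family. The standard deviation of this value over the usual members was 0.12 in CD8 T, 0.15 in conventional CD4 T, 0.082 in monocyte/macrophage and 0.089 in tumour cells. Taking the median over CD8 T, conventional CD4 T, regulatory T, NK, monocyte/macrophage and tumour cells, 67 of 77 usual members lay within 0.1 of 0 and all 77 within 0.25. Past 0.5, CD8 T cells had 0 members higher (7.17% of all genes, centred on their median) and 1 lower (10.4%), Rps19bp1. Conventional CD4 T cells had 0 higher (12.6%) and 1 lower (14.5%), and regulatory T cells 0 higher (10%) and 1 lower (11.2%), which was Rps27l in both. NK cells had 1 higher (9.9%), Rps19bp1, and 0 lower (11.3%). There were 0 in either direction in other T (13.1% higher, 14.7% lower), monocyte/macrophage (1.88% and 3.24%), conventional dendritic (5.86% and 6.59%), Dcn/Lum/Pdgfra-gated (6.91% and 5.36%) and tumour cells (1.78% and 3.11%). In each of these classes the share of members was below the background. The filter admits genes with far fewer UMIs than the usual members hold, so counting error spreads the background more. The members called, Rps19bp1 and Rps27l, were among those with few UMIs.

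Among usual members the farthest above the family was Rps28, a small-subunit protein (chr17:33819027-33824562, minus strand, mm10). Its deviation had a median of 0.25 and an interval above 0 in 6 of 6 classes. Its level was 1968 CPM in KO and 1261 CPM in WT CD8 T cells, with a deviation of 0.27 (0.21 to 0.34). In conventional CD4 T cells it was 1811 CPM in KO and 996 CPM in WT, with a deviation of 0.45 (0.33 to 0.56). Elsewhere its deviation was 0.30 in NK, 0.22 in regulatory T, 0.092 in monocyte/macrophage and 0.062 in tumour cells, so it was small outside the lymphocytes. Rpl35, which sits near the exit of the tunnel for new protein chains (chr2:39001580-39005624, minus strand), was the other usual member with an interval above 0 in 6 of 6 classes, at a median of 0.21. Its level was 2063 CPM in KO and 1721 CPM in WT tumour cells, a deviation of 0.25, and 1303 CPM in KO and 914 CPM in WT CD8 T cells, a deviation of 0.14.

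Rps29 and Rps27 are small zinc-binding proteins of the small subunit, and both depended on the class. Rps29 was at 2239 CPM in KO and 1414 CPM in WT CD8 T cells, with the highest deviation named in that class, 0.29 (0.23 to 0.36), and 0.30 in both conventional CD4 and regulatory T cells. Its deviation was -0.091 in monocyte/macrophage cells, where its level was 1773 CPM in KO and 1591 CPM in WT. Rps27 had a deviation of 0.23 in CD8 T cells, 0.14 in conventional CD4 T and 0.15 in regulatory T cells, but -0.092 in NK cells. Rpl12, at the base of the ribosomal stalk, was above the family in T cells (0.25 in CD8 T, 2322 CPM in KO and 1512 CPM in WT), monocyte/macrophage (0.14) and tumour cells (0.11). It was at -0.072 (-0.15 to 0.0056) in NK cells. Rpl4, which lines the tunnel for new chains, was above it in regulatory T (0.26), tumour (0.26), NK (0.18) and monocyte/macrophage cells (0.17). The monocyte/macrophage value of Rpl4 was -0.067 in cells of 3000 to 6000 UMIs, on the other side of 0.

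Below the family, Rps14, a small-subunit protein whose loss on the long arm of a chromosome underlies a human anaemia (chr18:60747098-60778546, plus strand), was the only usual member with an interval below 0 in 6 of 6 classes. Its median deviation was -0.18. It stood at 3189 CPM in KO and 2825 CPM in WT CD8 T cells, a deviation of -0.20 (-0.24 to -0.15), and at 2855 CPM in KO and 3071 CPM in WT NK cells, a deviation of -0.23. In tumour cells it was 2035 CPM in KO and 2228 CPM in WT, a deviation of -0.15. Rps13 had a median of -0.13 and an interval below 0 in 5 classes. Rpl13a, known in human monocytes for a role in silencing inflammatory mRNAs, had a median of -0.11 and lay below the family in CD8 T, conventional CD4 T, NK and monocyte/macrophage cells but not in regulatory T or tumour cells. Rpl11, which binds Mdm2 and so restrains the degradation of p53 when ribosome assembly fails, had a median of -0.100 and was at -0.16 in tumour cells.

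**Figure D4:**
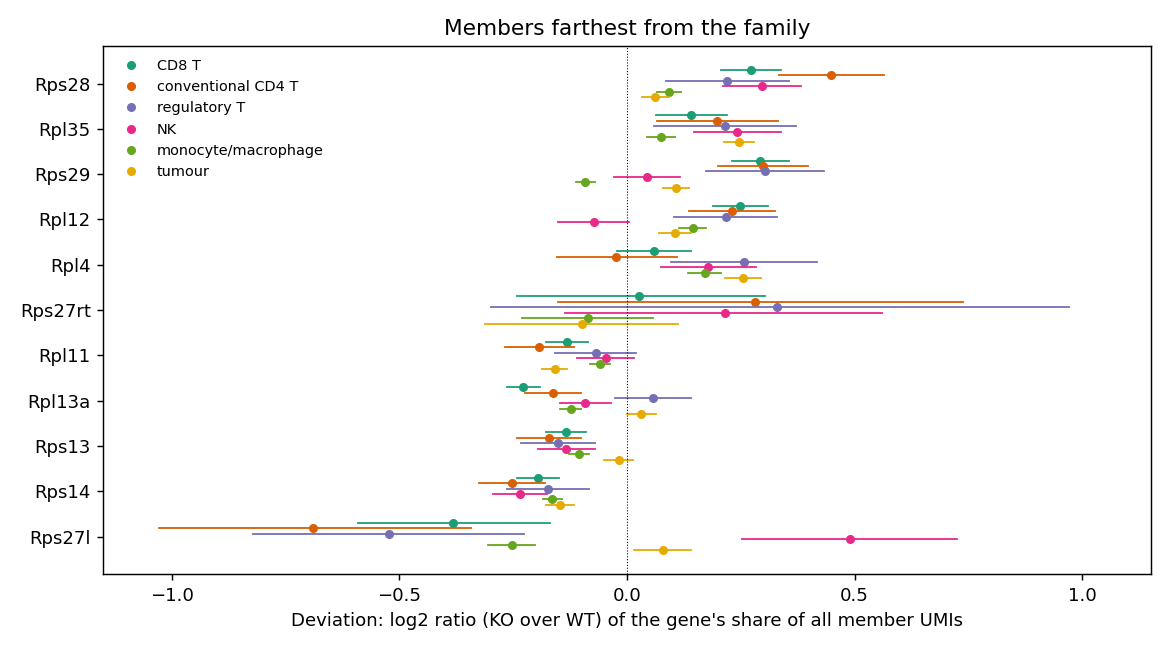
Deviation of 6 members above and 5 below the family (y axis), among those farthest from it by the median over 6 classes, as the log2 ratio, KO over WT, of the gene's share of all member UMIs (x axis). Points are classes by colour and lines 95% counting intervals. Rps28 and Rpl35 lie above 0 and Rps14 below 0 in 6 of 6 classes, while Rps27l is at 0.49 in NK cells and -0.69 in conventional CD4 T cells.

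Further members stood out in single classes. Among CD8 T cells Rpl27, a large-subunit protein, and Rps15a, of the small subunit, had the lowest deviations among the abundant members, -0.31 (-0.37 to -0.26) and -0.29 (-0.32 to -0.25). Rpl27 was at 2232 CPM in KO and 2146 CPM in WT, and Rps15a at 4935 CPM in KO and 4662 CPM in WT, so their levels were nearly equal while the family was higher. Rpl36a and the stalk protein Rplp1 were above the family there, by 0.25 and 0.20. In conventional CD4 T cells Rps20 was above it by 0.32 and Rpl7a below it at -0.30. In regulatory T cells Rps15a was at -0.22 and Rpsa, which also serves as a laminin receptor precursor, at -0.15.

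In NK cells Rpl29 was above the family by 0.22, and Rps9 and Rpl17 were at -0.20 and -0.18. The NK value of Rps9 was 0.028 in cells of 3000 to 6000 UMIs. In monocyte/macrophage cells Rps7, another Mdm2-binding protein, led at 0.23 (0.21 to 0.25), with 2354 CPM in KO and 1695 CPM in WT. It was followed there by Rps2 at 0.13 and by Rpl39 and Rps3a1 at 0.11 each, while Rps9 was at -0.18 and Rplp2 at -0.15. Tumour cells had Rpl37 at 0.20, and Rpl22 and Rpl10a at -0.16 each. With gates set on thinned cells, which left 21 KO and 12 WT tumour cells, Rpl22 was at 0.025 and Rpl11 at 0.16.

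The CD8 T deviations were then read within cycling and other cells of that class. In cells without proliferation genes 12 of the 12 members named for CD8 T cells had the sign they had in the whole class, and in cycling cells 10 of 12. Rps29 stayed above the family in both subsets, at 0.31 in cycling cells and 0.27 in cells without proliferation genes, and Rps28 did so at 0.15 and 0.28 in the same order. Rps15a stayed below it at -0.29 in cycling cells and -0.33 in the others. Rps14 and Rpl13a kept their sign in cycling cells, but with intervals that included 0. They were at -0.044 (-0.15 to 0.059) and -0.0078 (-0.093 to 0.078) there, against -0.27 and -0.32 in the others. The stalk gene Rplp1 was at -0.057 (-0.13 to 0.018) in cycling cells and 0.26 (0.22 to 0.31) in the others, so its place above the family was seen in cells without proliferation genes. By Ccr7 and Lef1, 12 of 12 had the sign of the whole class in cells with at least 2 UMIs and 9 of 12 in cells with none. The 3 others in cells with none were Rps27 at -0.069 (-0.17 to 0.034), Rps19bp1 at 0.066 (-0.64 to 0.79) and Rps27l. Rpl12 and Rplp1 kept their sign there at 0.025 (-0.086 to 0.14) and 0.034 (-0.033 to 0.10), against 0.32 and 0.21 in cells with the markers. Rps29, at 0.44, and Rps15a, at -0.47, were farther from the family in cells without the markers than in cells with them, at 0.25 and -0.15.

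The start sites of the deviating genes were compared because the pyrimidine tract is the sequence feature for which the family is known. RefSeq's promoter table (GRCm38.p6, the same build as mm10) held 67 of the 87 members and 57 of the 77 usual ones, taking the start listed first for each gene. Shown are 15 bases before and 15 from the start on, 5' to 3', with the longest run of C and T in capitals. The first 4 belong to genes above the family and the last 4 to genes below it.
Rps28 (chr17:33824548-33824577, minus strand): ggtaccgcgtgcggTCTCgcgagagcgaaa
Rpl35 (chr2:39005117-39005146, minus strand): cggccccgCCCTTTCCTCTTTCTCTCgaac
Rpl12 (chr2:32961697-32961726, plus strand): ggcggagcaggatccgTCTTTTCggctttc
Rpl4 (chr9:64173372-64173401, plus strand): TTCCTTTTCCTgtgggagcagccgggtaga
Rpl13a (chr7:45128731-45128760, minus strand): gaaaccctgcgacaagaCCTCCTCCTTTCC
Rps13 (chr7:116334176-116334205, minus strand): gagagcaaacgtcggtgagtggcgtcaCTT
Rpl11 (chr4:136053379-136053408, minus strand): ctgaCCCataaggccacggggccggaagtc
Rps27l (chr9:66946071-66946100, plus strand): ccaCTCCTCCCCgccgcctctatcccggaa

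The longest run spans the start in Rpl35, with 18 bases, and begins just after it in Rpl12 and Rpl13a, with 7 and 13 bases. In Rps28, Rps13 and Rpl11 the longest run in the window has 3 or 4 bases, while within 30 bases on each side of the start Rpl11 has a run of 17, Rps13 of 6 and Rps28 of 5 bases. An annotated start can miss the start used in these cells. Within 30 bases of the start, the longest run had a median of 8 bases over the 57 usual members and 5 over 27025 promoters of all symbols. A run of at least 8 bases occurred in 29 of the 57 (50.9%) and in 22.8% of all. The letters ACTTCCGG or their reverse complement CCGGAAGT, a motif of ETS factors, were in 11 of the 57 promoters of 300 bases (19.3%) and in 4% of all. AAGATGG or CCATCTT, a motif of YY1, was in 8 (14.04%) and in 6.48% of all, and TATAAA or TTTATA in 5 (8.77%) and in 14.2% of all.

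Rps27l, a paralogue of Rps27 that p53 induces, had the widest range of deviations among members that passed the filter in all 6 main classes. Its level was 141 CPM in KO and 142 CPM in WT CD8 T cells, where the family was 1.29-fold higher, which gives a deviation of -0.38 (-0.59 to -0.17). In conventional CD4 T cells it was 113 CPM in KO and 137 CPM in WT, a deviation of -0.69 (-1.03 to -0.34) from 268 KO and 99 WT UMIs. Regulatory T cells had 207 CPM in KO and 240 CPM in WT, a deviation of -0.52. NK cells went the other way, with 219 CPM in KO and 143 CPM in WT, a deviation of 0.49 (0.25 to 0.72). Other T cells were at 0.23 (0.039 to 0.41), with 206 CPM in KO and 136 CPM in WT. Monocyte/macrophage cells had 271 CPM in KO and 272 CPM in WT, a deviation of -0.25, and conventional dendritic cells 782 CPM in KO and 956 CPM in WT, a deviation of -0.48. Tumour cells were at 0.078, with 547 CPM in KO and 512 CPM in WT.

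Within CD8 T cells the deviation of Rps27l also differed between subsets. It was 0.34 (-0.011 to 0.70) in cycling cells, from 212 KO and 98 WT UMIs, and -0.64 (-0.94 to -0.34) in cells without proliferation genes, from 276 KO and 145 WT UMIs. The interval in cycling cells includes 0. In cells with at least 2 UMIs of Ccr7 and Lef1 it was -0.64 (-0.97 to -0.30), from 288 KO and 102 WT UMIs, and in cells with none 0.35 (0.0037 to 0.70), from 182 KO and 113 WT UMIs. The sign in the whole class was thus not that of every subset, and the differences between subsets were not tested.

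The other paralogues were read beside the genes they derive from. Rpl22, which mouse T cells need for their development, was at 1974 CPM in KO and 1579 CPM in WT CD8 T cells, with a deviation of -0.047 (-0.11 to 0.013). Its paralogue Rpl22l1 was at 581 CPM in KO and 422 CPM in WT, with a deviation of 0.090 (-0.025 to 0.21). In conventional CD4 T cells Rpl22l1 had a deviation of 0.45 (0.25 to 0.65), with 616 CPM in KO and 338 CPM in WT, and in monocyte/macrophage cells -0.18. Rpl36al, a retrocopy relative of Rpl36a, was near the family at -0.082 in CD8 T cells, while Rpl36a was at 0.25. Rps27rt is a retrotransposed copy of Rps27 with 104 CPM in KO and 78.9 CPM in WT CD8 T cells, and its reads may be hard to tell from those of Rps27. Its interval included 0 in 6 of 6 classes. Rpl7l1 was at 55.9 CPM in KO and 55.2 CPM in WT CD8 T cells, a deviation of -0.35.

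Rps19bp1 had 116 KO and 69 WT UMIs in CD8 T cells, a deviation of -0.61 (-1.06 to -0.16), and 53 KO and 72 WT UMIs in NK cells, a deviation of 0.56 (0.023 to 1.095). Rpl39l and Rpl10l, which are known from testis, Rpl3l, known from heart and skeletal muscle, and the retrogene Rps23rg1 passed the filter in no class. Rpl10l had 0 UMIs in KO and 0 in WT in each of the 6 main classes. Rpl3l had 13 KO and 38 WT UMIs in monocyte/macrophage cells, and Rpl39l 4 KO and 45 WT UMIs.

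The stalk proteins and the fusion genes completed the members fixed by name. Rplp0, the scaffold of the stalk, was at 5377 CPM in KO and 4047 CPM in WT CD8 T cells, a deviation of 0.040, and Rplp2 at 3776 CPM in KO and 2836 CPM in WT, a deviation of 0.043. Rpsa was at 6759 CPM in KO and 5143 CPM in WT, a deviation of 0.024. Rpl41, the shortest ribosomal protein, was at 4027 CPM in KO and 3164 CPM in WT, a deviation of -0.022, and Rpl39, another very short one, at 3600 CPM in KO and 2733 CPM in WT, a deviation of 0.028. Rps27a, made as a fusion to ubiquitin, was at 4631 CPM in KO and 3599 CPM in WT, a deviation of -0.0065. All 6 of these lay closer to 0 in CD8 T cells than the standard deviation of the usual members, 0.12. The stalk protein Rplp1, given above, lay past it at 0.20 (0.17 to 0.24).

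Outside the symbol rule, Fau had a smaller ratio than the family in CD8 T and monocyte/macrophage cells. It was at 6131 CPM in KO and 5371 CPM in WT CD8 T cells, log2 0.19 (0.16 to 0.22), and at 3604 CPM in KO and 3233 CPM in WT monocyte/macrophage cells, log2 0.16. In tumour cells it was at log2 0.020.

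Some members held different shares of the family in different classes, and this pattern was shared in part by the libraries. Of the 77 usual members, 52 had their highest share of member UMIs in the same class in KO and in WT, and 45 their lowest. The median span between the highest and the lowest of 9 classes was 0.51 on the log2 scale in KO and 0.58 in WT. Rps27l spanned more than any usual member, with its highest share in conventional dendritic cells, 0.451% in KO and 0.627% in WT. Rps9 was highest in monocyte/macrophage cells, 1.24% in KO and 1.41% in WT, and lowest in tumour cells, 0.466% in KO and 0.451% in WT. Rpl13a was lowest in tumour cells, 0.768% in KO and 0.752% in WT, and held 1.80% in KO and 2.11% in WT of member UMIs in CD8 T cells. Rpl13 ran the other way, with 5.03% in KO and 4.76% in WT in tumour cells and its lowest share in regulatory T cells, 2.20% in KO and 2.21% in WT. The genes drawn for this pattern were chosen after their values were seen.

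**Figure D5:**
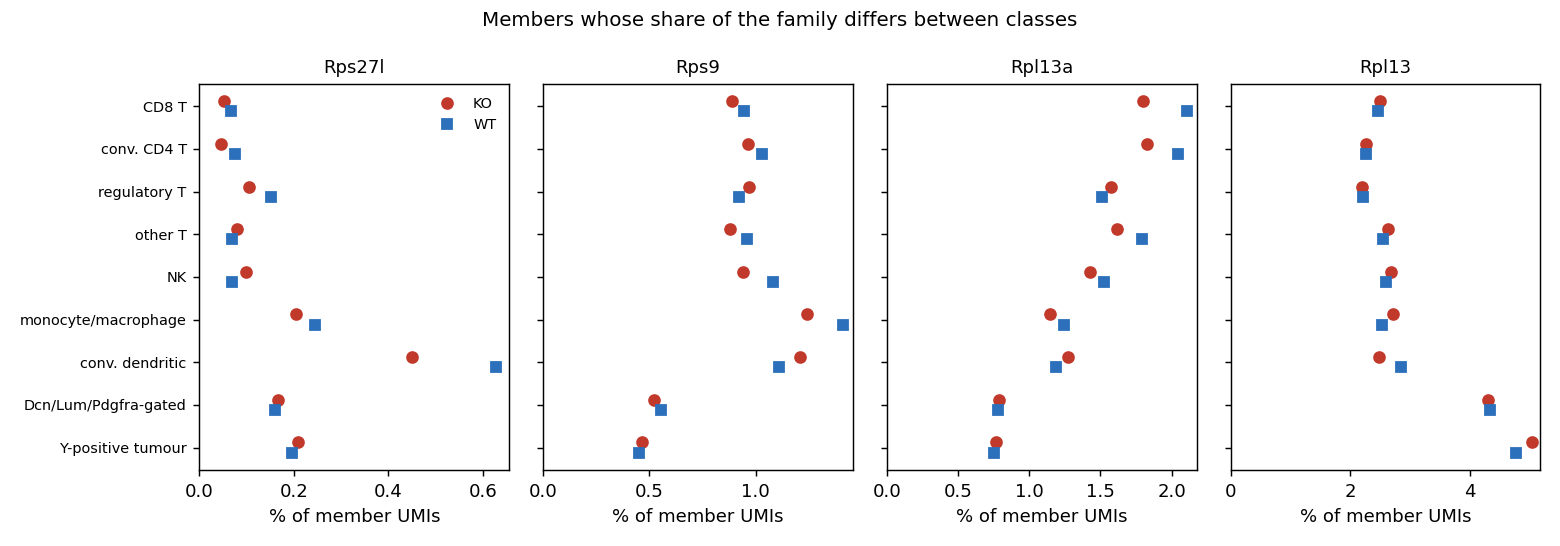
Percent of all ribosomal protein UMIs (x axis) held by 4 members in 9 gated classes (y axis), KO as red circles above WT as blue squares. Rps27l peaks in conventional dendritic cells at 0.451% in KO and 0.627% in WT, Rps9 in monocyte/macrophage cells, Rpl13a is low in tumour cells and Rpl13 high there at 5.03% in KO and 4.76% in WT.

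Genes that work beside the ribosomal proteins moved less evenly. Of 20 translation factors and other genes with pyrimidine tracts, 17 were higher in KO CD8 T cells, against 34.5% of all genes. There 0 of 20 were past 0.5, against 3.8%, with a median log2 ratio of 0.13 against -0.12 over all genes. Those farthest from 0 by their intervals were the elongation factor genes Eef1b2, at 1605 CPM in KO and 1171 CPM in WT, and Eef1a1, at 7587 CPM in KO and 6131 CPM in WT, with Npm1 at log2 0.32 and Rack1, a protein of the small subunit, at 0.27. In monocyte/macrophage cells 19 of 20 were higher, against 40.3% of all genes, and 1 was past 0.5, against 1.3%. It was the snoRNA host gene Gas5, at 138 CPM in KO and 93.2 CPM in WT. The median of the 20 was 0.27 there, against -0.058 over all genes, and 0.030 in tumour cells, against -0.011.

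Ribosome biogenesis genes were past 0.5 in 3 of 17 tested in CD8 T cells, against 3.8% of all genes, with a median of 0.22, and in 3 of 13 in monocyte/macrophage cells, against 1.3% of all genes, with a median of 0.29. Myc, a transcription factor that drives ribosome production, had the largest ratio of those named in both, at 91.0 CPM in KO and 30.9 CPM in WT CD8 T cells, log2 1.56 (1.16 to 1.98), and at 93.8 CPM in KO and 32.4 CPM in WT monocyte/macrophage cells, log2 1.53 (1.43 to 1.64). Fbl, which methylates ribosomal RNA, was at log2 0.56 and Gar1, which takes part in its pseudouridylation, at 0.57 in CD8 T cells. The counts were 11 of 17 in conventional CD4 T, 8 of 11 in regulatory T, 10 of 17 in other T and 7 of 18 in NK cells, against 9.38%, 7.02%, 8.64% and 7.33% of all genes in these classes in the same order. In tumour cells 0 of 22 were past 0.5, against 1.6% of all genes, with a median of 0.14 against -0.011. Conventional dendritic cells stood apart from the other immune classes, with 6 of 13 higher in KO, close to the 44% of all genes. In them 1 was past 0.5, against 5.02% of all genes, and the median was -0.0022, against -0.037.

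Mitochondrial ribosomal protein genes, which serve the separate ribosome of mitochondria, lay between all genes and the cytosolic family in CD8 T cells. There 26 of 54 tested were higher in KO, against 34.5% of all genes, and 1 was past 0.5, against 3.8%, Mrpl30 at 144 CPM in KO and 101 CPM in WT, with a median of -0.0096, against -0.12 over all genes, and a summed level of 4398 CPM in KO and 4316 CPM in WT. Their median was 0.13 in monocyte/macrophage cells, where 43 of 53 were higher and 0 past 0.5, against 40.3% and 1.3% of all genes and a median of -0.058 over them, and -0.034 in regulatory T and -0.044 in conventional dendritic cells. It was 0.31 in NK cells, with 14 of 58 past 0.5, against 7.33% of all genes, and 0.29 in other T cells, with 15 of 58, against 8.64%.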

How the data were processed

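Single-cell 3' RNA was measured in 1 KO and 1 WT library. The authors deposited untransformed UMI counts. Cell Ranger 6.0.1, the build mm10 and Seurat in its versions 4.0.3 and 4.0.4 are listed per the submitters' processing notes; per the file headers, the version of Cell Ranger was 8.0.1. Annotation and strandedness: not given in the sources used here. Only the counts as deposited were used, with Python 3.11.15, numpy 2.4.6, scipy 1.17.1, pandas 2.3.3 and scanpy 1.11.5.

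Cells were classed by summed UMIs of 10 marker gates with minimums of 2 to 5 UMIs, and cells that met several lineages were left out. Plasma cells also needed 20% immunoglobulin UMIs. UMIs were summed per library and class, for classes of at least 50 cells in each library. Shares have Clopper-Pearson intervals and ratios exact conditional ones. A gene was tested for size with at least 50 UMIs in a library and a mean of 30 CPM, and a log2 ratio past 0.5 was counted. In all classes, background deviations are log2 CPM ratios minus their median over tested genes. The code was checked on simulated counts. The members, gates and lists were chosen with earlier results of these data known, and Rps23rg1 was set apart from the usual members after its values were seen. Named members are those whose interval lies farthest from 0, up to 6 per direction in CD8 T and monocyte/macrophage cells and across classes and up to 3 in other main classes, besides genes fixed by name. Counts of members and lists share libraries and are no evidence of genotype effects. Near-identical pseudogenes can take reads from any member. Alternatives were other cell filters, gates on cells thinned to 2000 UMIs, gates raised by 1 UMI, Scrublet doublet scores, a window of 3000 to 6000 UMIs, no filter on low counts, other denominators and, added after seeing the data, cells with under 0.1% immunoglobulin UMIs and T cells without UMIs of Ccr7 and Lef1. Some results are not reported here.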

Additional observations from a re-analysis of the deposited data

Results flagged for a closer look

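Rps27l lay on opposite sides of the ribosomal protein family in different classes of the same pair of libraries. Its deviation was 0.49 in NK cells, against -0.38 in CD8 T, -0.69 in conventional CD4 T, -0.52 in regulatory T and -0.25 in monocyte/macrophage cells. In each of these classes the counting interval lay more than 0.15 from 0. That limit was chosen after the opposite signs had been seen. With 1 library per genotype the difference between classes was not tested. Over 7 alternatives each class kept its sign, but the size moved. With gates on cells thinned to 2000 UMIs the deviation was 0.13 in NK, -0.21 in regulatory T and -1.39 in conventional CD4 T cells. Cells of 3000 to 6000 UMIs gave -0.61 in CD8 T, -0.79 in regulatory T and -0.46 in monocyte/macrophage cells, and cells with under 0.1% immunoglobulin UMIs -0.19 in CD8 T cells. Within CD8 T cells it was -0.64 in cells with at least 2 UMIs of Ccr7 and Lef1 and 0.35 in cells with none, a split chosen after seeing the data. The NK value rests on 256 KO and 366 WT UMIs in 164 KO and 408 WT cells.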

How the results depend on the processing

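With 1 library per genotype no setting gives replicate error, and no replicate could be left out. No paired analysis was possible because each genotype is 1 library. The log2 ratios of shares below left their counting intervals, which are narrow. The KO share remained the higher in all settings for CD8 T, conventional CD4 T, regulatory T, NK and monocyte/macrophage cells. With gates on cells thinned to 2000 UMIs the ratio was 0.31 in CD8 T, 0.38 in regulatory T, 0.12 in NK, 0.21 in monocyte/macrophage and 0.25 in tumour cells, the last from 21 KO and 12 WT cells. With gates raised by 1 UMI it was 0.38 in conventional CD4 T, 0.11 in NK, 0.26 in monocyte/macrophage and 0.060 in tumour cells. The 1277 KO and 763 WT cells with the highest Scrublet scores were also left out, a number preset at 0.8% per 1000 cells. Scrublet's automatic threshold called 0 KO and 128 WT cells. Without the cells left out, the ratio was 0.38 in CD8 T, 0.32 in regulatory T, 0.14 in NK and 0.19 in monocyte/macrophage cells. Cells of 3000 to 6000 UMIs gave 0.44 in CD8 T, 0.49 in conventional CD4 T, 0.43 in regulatory T, 0.092 in NK, 0.40 in monocyte/macrophage and 0.33 in tumour cells, the last from 6 KO and 4 WT cells. Cells with under 0.1% immunoglobulin UMIs gave 0.38 in CD8 T, 0.42 in regulatory T, 0.18 in NK and 0.28 in monocyte/macrophage cells. Cells without a UMI of Ccr7 and Lef1, a split added after seeing the data, gave 0.16 in CD8 T, 0.26 in conventional CD4 T and 0.13 in regulatory T cells. Leaving mitochondrial and immunoglobulin UMIs out of the denominator gave 0.38 in CD8 T, 0.43 in conventional CD4 T and 0.25 in monocyte/macrophage cells. The median share per cell gave 0.32 in CD8 T, 0.40 in conventional CD4 T, 0.44 in regulatory T, 0.14 in NK and 0.23 in monocyte/macrophage cells, and -0.011 in tumour cells, where the sign turned. The stricter cell filter gave 0.0038 in tumour cells. Members deviating downward by more than 0.5 numbered 0 in CD8 T cells with gates on thinned cells and with the immunoglobulin limit, against 1, and 1 in monocyte/macrophage cells in the 3000 to 6000 UMI window and with no filter on low counts, against 0. Of 336 deviations of named members over 7 alternatives, 329 kept their sign and 7 did not, 5 of them in the 3000 to 6000 UMI window, among them Rpl35 at -0.55 and Rpl37 at -0.23 in the few tumour cells it held. The cause was not tested. Members with few UMIs, such as Rps19bp1, and classes under 50 cells are limited by depth.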
